A study of Mus musculus with 22 samples.

Results

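Making ribosomes occupies the nucleolus, where RNA polymerase I (Pol I) copies the ribosomal RNA genes, small nucleolar RNA-protein particles (snoRNPs) cut and modify the transcript, and assembly factors build the small and the large subunit. MYC, a transcription factor, is known to bind many of the genes for these factors at the E-box CACGTG, together with genes of polyamine and nucleotide synthesis and of translation initiation. In the testis, spermatogonia that begin to differentiate display the receptor KIT on their surface and go through a series of divisions before meiosis. The account covers 40 genes of ribosome biogenesis and MYC targets, picked by name: 7 of Pol I transcription, 7 of snoRNPs and the nucleolar scaffold, 6 of small subunit assembly, 11 of large subunit assembly and 9 MYC targets outside the nucleolus. Each gene was represented by the peak within 1000 bp of an end of its annotation (mm10) that had the highest mean read count. All 40 genes had such a peak among the 96049 peaks of the series. They lay on 39 distinct peaks, because Hspd1 and Hspe1, which encode the mitochondrial chaperonin, share 1.

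The measurement was ATAC-seq, in which the transposase Tn5 cuts and tags open DNA, in 22 libraries of C57BL/6 mice aged 8 to 12 weeks. TERT-deleted mice gave 3 libraries each of MCAM-high KIT-negative spermatogonia (called MCAM-high here), MCAM-medium KIT-negative spermatogonia (MCAM-medium) and MCAM-medium KIT-positive spermatogonia (KIT-positive). MCAM is a surface adhesion molecule used in the sort. The control mice, heterozygous for TERT by their titles, gave 3, 2 and 3 libraries of the same populations. All 17 spermatogonial libraries, controls included, have the genotype entry TertCreER/+:Rosalsl-Tdtomato/+, in which 1 Tert allele carries a tamoxifen-activated Cre and the Rosa locus a fluorescent reporter, and were sorted on day 7 after tamoxifen. The floxed allele of the deleted mice is not named in that entry, so deleted and control were told apart by title alone. The other 5 libraries were later germ cells of the genotype TertTdtomato/+. For 4 of those 5 the title and the library name disagree on spermatocytes or round spermatids, so the 5 were kept as 1 group. The library names of all 5 carry the same tag, Het1, followed by a letter, so they may be aliquots of 1 animal, and each SD and test of later germ cells has this limit. For the other groups, too, no label says that the libraries came from separate animals, so p-values measure the spread between libraries, which may be technical. Their library names carry the tags Ctrl1 to Ctrl3 and TERT-CKO1 to TERT-CKO3, and the same tag recurs across the populations. Libraries of 1 tag may therefore come from 1 source. The main fits did not pair them, and a replicate block was run as an alternative. The KIT-positive sort and the MCAM-high sort differ in both markers, whereas KIT-positive and MCAM-medium differ in KIT alone.

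Total counts ran from 922085 to 3358377 per library. The peak at Kit was higher in KIT-positive than in MCAM-high libraries of both genotypes (log2 difference 1.01, SE 0.27, in deleted mice and 0.99, SE 0.26, in controls, edgeR adjusted p = 0.00799 and 0.00647), and the peak at Stra8, a gene of differentiating spermatogonia, likewise (1.59 and 1.18, adjusted p = 0.00420 and 0.0171). The peak at Mcam did not pass in either genotype (0.39 and 0.14). The 9 markers of undifferentiated spermatogonia summed to 308 to 401 CPM in deleted and 262 to 415 CPM in control KIT-positive libraries, against 247 to 268 CPM in deleted and 303 to 328 CPM in control MCAM-high ones. Of these, Etv5 was higher in deleted KIT-positive cells (0.85, adjusted p = 0.00696) and did not pass in controls (0.37), and Gfra1 passed in neither (-0.26 and -0.64). The 7 round spermatid markers with a peak summed to 255 to 363 CPM (counts scaled to a common library size) in later germ cells and to 27.2 to 41.8 CPM in spermatogonial libraries, and Sertoli cell markers (6 of 8 with a peak) to 51.8 to 59.95 CPM in later germ cells and to 83.5 to 138 CPM in spermatogonial libraries. The part of these differences in the members' values was not tested. The share of counts that fell in gene-end peaks was 57.7 to 63.0% in deleted KIT-positive, 54.4 to 64.1% in control KIT-positive and 51.3 to 55.6% in all other libraries. In 3 libraries over 70% of the nonzero counts were even: deleted KIT-positive replicate 1 (70.5%), deleted MCAM-medium replicate 3 (73.7%) and control KIT-positive replicate 3 (73.9%). Values without these libraries are given beside the counts. The peak at an end of Tert held 13.4 to 16.1 CPM in deleted and 14.0 to 29.8 CPM in control KIT-positive libraries (log2 difference -0.56, adjusted p = 1), but the deleted stretch is not named in the labels, so this peak is no check of the deletion.

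A 300-base window, 250 bases before to 50 after each RefSeq start (GRCm38.p6), was given for 33 of the 40 genes. The 6 windows printed here belong to the first 6 genes in order of adjusted p, among those with a window, in control KIT-positive against control MCAM-high cells. They are read 5′ to 3′ on the gene's strand, with the letters CACGTG in capitals.
Eif5a (chr11:69921337-69921636, minus strand): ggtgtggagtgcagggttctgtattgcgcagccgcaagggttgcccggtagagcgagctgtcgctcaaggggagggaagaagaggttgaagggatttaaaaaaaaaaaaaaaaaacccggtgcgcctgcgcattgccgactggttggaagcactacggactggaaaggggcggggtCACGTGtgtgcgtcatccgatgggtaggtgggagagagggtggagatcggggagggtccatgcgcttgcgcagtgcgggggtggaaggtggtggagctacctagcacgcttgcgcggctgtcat
Eif4a1 (chr11:69672374-69672673, minus strand): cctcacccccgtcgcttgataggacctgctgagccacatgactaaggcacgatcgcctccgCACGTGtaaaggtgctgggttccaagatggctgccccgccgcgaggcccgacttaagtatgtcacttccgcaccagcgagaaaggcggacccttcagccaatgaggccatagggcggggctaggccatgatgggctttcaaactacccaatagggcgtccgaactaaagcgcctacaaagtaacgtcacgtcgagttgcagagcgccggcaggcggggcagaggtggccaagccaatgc
Nme1 (chr11:93967976-93968275, minus strand): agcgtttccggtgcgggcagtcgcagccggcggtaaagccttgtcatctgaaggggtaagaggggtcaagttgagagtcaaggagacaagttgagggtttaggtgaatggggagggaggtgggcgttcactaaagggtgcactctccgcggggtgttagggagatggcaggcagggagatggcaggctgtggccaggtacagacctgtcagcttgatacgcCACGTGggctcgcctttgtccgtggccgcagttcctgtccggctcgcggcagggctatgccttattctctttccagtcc
Gnl3 (chr14:31019082-31019381, minus strand): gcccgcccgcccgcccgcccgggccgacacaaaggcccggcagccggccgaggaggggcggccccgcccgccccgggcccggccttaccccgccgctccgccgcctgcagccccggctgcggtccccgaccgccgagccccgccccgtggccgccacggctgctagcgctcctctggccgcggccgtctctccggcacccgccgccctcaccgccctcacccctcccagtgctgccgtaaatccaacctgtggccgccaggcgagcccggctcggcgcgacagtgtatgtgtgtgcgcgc
Pes1 (chr11:3963725-3964024, plus strand): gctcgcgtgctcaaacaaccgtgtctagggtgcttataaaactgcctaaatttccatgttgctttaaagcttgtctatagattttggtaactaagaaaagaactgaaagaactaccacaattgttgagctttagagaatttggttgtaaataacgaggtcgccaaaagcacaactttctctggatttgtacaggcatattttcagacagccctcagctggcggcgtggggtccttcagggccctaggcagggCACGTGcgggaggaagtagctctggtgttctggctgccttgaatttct
Wdr43 (chr17:71615965-71616264, plus strand): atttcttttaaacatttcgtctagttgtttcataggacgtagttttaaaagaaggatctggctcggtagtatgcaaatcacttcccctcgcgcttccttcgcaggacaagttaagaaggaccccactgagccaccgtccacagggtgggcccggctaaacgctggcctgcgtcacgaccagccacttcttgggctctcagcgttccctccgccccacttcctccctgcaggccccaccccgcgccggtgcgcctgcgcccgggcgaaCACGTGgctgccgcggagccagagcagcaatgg
With the start counted as 0, the first base of the E-box is at -74 in Eif5a, -189 in Eif4a1, -29 in Nme1, 2 in Pes1 and 17 in Wdr43, and the Gnl3 window has none. Eif5a has 6 annotated starts, of which 3 have the E-box in their window and 3 do not, and the window printed is one of those with it. Nme1 has 2 starts, both with it, of which 1 is shown. The palindrome CACGTG, which reads the same on both strands, was present in at least 1 window of 12 of the 33 genes with a window (36.4%), against 8.09% of all 27025 genes with one and 10.6% of the 15147 whose gene-end peak was tested. The 12 are Imp4, Hspd1, Eif4e, Nop2, Utp20, Pes1, Eif4a1, Eif5a, Mybbp1a, Nme1, Rrn3 and Wdr43. The genes were listed as MYC targets in the first place, so this share is not independent of the choice. GGGCGG, counted on both strands, was present in 81.8% of the 33 against 59.3% of the tested genes, CCGGAAG in 27.3% against 15.5%, GCATGCG in 15.2% against 6.16%, AAGATGG in 15.2% against 7.59%, CCAAT in 36.4% against 41.7% and TATAAA in 3.03% against 9.66%, with Pes1 as its single holder. A match in these letters is a description and not a binding site.

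The member peaks were broad and strong for gene-end peaks. Their width was 440 to 1662 bp with a median of 1025 bp, whereas the strongest gene-end peaks of all genes had a median of 769 bp and all peaks one of 417 bp. In 35 of the 39 the mean count was above the median of the strongest gene-end peaks of all genes, 32.0 counts. The peak covered a RefSeq start of its gene in 30 members. For 16 of the 39 peaks another protein-coding gene also ends within the window, among them Senp3 at the Eif4a1 peak, Hsf1 at the Bop1 peak and Pbrm1 at the Gnl3 peak, and such a peak cannot be ascribed to 1 of its genes. The chosen peaks of Nop2, Wdr74 and Ubtf lie 13018, 5234 and 2231 bp from a RefSeq start, the first at an end of Iffo1 and the second at an end of Stx5a, and that of Fbl lies also at an end of Dyrk1b.

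Per kilobase of peak, the peak at Ncl, the gene of nucleolin, was the most accessible of the 39 in all 6 spermatogonial groups. Its level was 196 ± 3.61 CPM per kb in deleted KIT-positive (SD, n = 3) and 179 ± 45.2 in control KIT-positive cells (SD, n = 3), against 142 ± 17.98 in deleted MCAM-high (SD, n = 3) and 145 ± 9.79 in control MCAM-high cells (SD, n = 3). The next in control MCAM-high cells were Imp4, a partner of the snoRNP of early pre-rRNA cleavage, at 100.5 ± 8.82 and Rrs1, a large subunit assembly factor, at 96.7 ± 11.1 CPM per kb, which do not differ beyond their spread. In control KIT-positive cells Srm, which encodes spermidine synthase, came next at 151 ± 48.8, then Rrp9 at 131 ± 49.5 and Imp4 at 128 ± 29.7, again within their spread. The lowest in every spermatogonial group was the chosen peak of Ubtf, at 5.58 ± 5.96 CPM per kb in control KIT-positive and 1.56 ± 0.37 in control MCAM-high cells. That peak lies away from the starts of the gene and held 2.46 and 0.69 CPM in these groups. The peak over a RefSeq start of Ubtf held 11.02 and 5.58 CPM. In later germ cells Imp4 was first at 98.0 ± 8.64 and Polr1b last at 18.2 ± 5.75 CPM per kb (SD, n = 5), next to Cad at 18.3 ± 7.46.

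The comparison of KIT-positive with MCAM-high cells asks how these peaks differ once spermatogonia display KIT. In both genotypes the peaks of the translation factors Eif5a, Eif4a1 and Eif4e, of the enzymes Srm and Nme1 and of nucleolar proteins such as Npm1, Nolc1, Bop1 and Gnl3 were more accessible in KIT-positive cells. Eif5a, which encodes a translation factor whose active form carries a residue made from spermidine, had the smallest adjusted p in both comparisons, at 2.33-fold in deleted and 2.60-fold in control mice. With edgeR's quasi-likelihood test, its p-values adjusted by Benjamini-Hochberg across the 57289 peaks that entered (threshold 0.05), 16 of the 38 member peaks tested were higher and 0 lower in deleted KIT-positive cells, and 15 were higher and 1 lower in control KIT-positive cells. The Ubtf peak was too low to test. The median log2 difference over the 38 was 0.64 in deleted and 0.56 in control mice, with values from -0.60 to 1.42 and from -1.42 to 1.45. The background was 9.39% of all peaks called higher in deleted and 9.64% in control mice (4.35% and 6.11% called lower), 14.5% and 15.1% of the strongest gene-end peaks of 15846 genes, and 22.8% and 23% of the 9130 gene-end peaks above the median count, to which nearly all members belong. The median log2 difference of those strong gene-end peaks was 0.36 in deleted and 0.35 in control mice. So 16 and 15 of 38 stand above these shares, although the members lie among peaks that moved the same way as a class. The deleted and the control comparison have no library in common.

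The scale decides how large this looks. When the TMM scaling was set on gene-end peaks alone, the median of all peaks moved to -0.39 in deleted and -0.37 in control mice, against -0.05 in each with the scaling on all peaks, and the members called were 4 higher and 1 lower in deleted and 10 higher and 2 lower in control mice, with median log2 differences of 0.29 and 0.23. On that scale 10% of the strong gene-end peaks and 4.69% of all peaks were called higher in deleted mice, and 9.55% and 4.95% in controls, so 4 of 38 in deleted mice is near the share of strong gene-end peaks. With total counts and no TMM the members called were 10 higher and 1 lower in deleted and 13 higher and 2 lower in control mice, on 15% and 15.9% of strong gene-end peaks and 6.66% and 7.11% of all peaks called higher. Under the gene-end scaling Nop2, whose chosen peak lies at an end of Iffo1, was called lower in both genotypes (-0.93 in deleted and -0.79 in control mice). The peak over the Nop2 start, with the scaling on all peaks, gave 0.52 in deleted and 0.61 in control mice and did not pass. With the gene-end scaling the calls kept in deleted mice were those of Fbl, Rrp9, Nolc1 and Eif5a. In controls they were Npm1, Rrp9, Wdr43, Bop1, Nip7, Gnl3, Nme1, Srm, Eif5a and Eif4a1, and Pes1 as lower. All other calls of these 2 comparisons were lost on that scale. No called member changed its direction under any scaling. Without the libraries of over 70% even counts, 12 were higher and 0 lower in deleted and 11 higher and 1 lower in control mice. Without deleted MCAM-high replicate 2, 9 were called in deleted mice. Of the 16 calls in each genotype, 6 in deleted and 9 in control mice held in every fit that leaves out 1 library, those of Fbl, Rrp9, Nolc1, Bop1, Nme1 and Eif5a in deleted and of Npm1, Wdr43, Pes1, Bop1, Gnl3, Nme1, Srm, Eif5a and Eif4a1 in control mice.

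**Figure D1:**
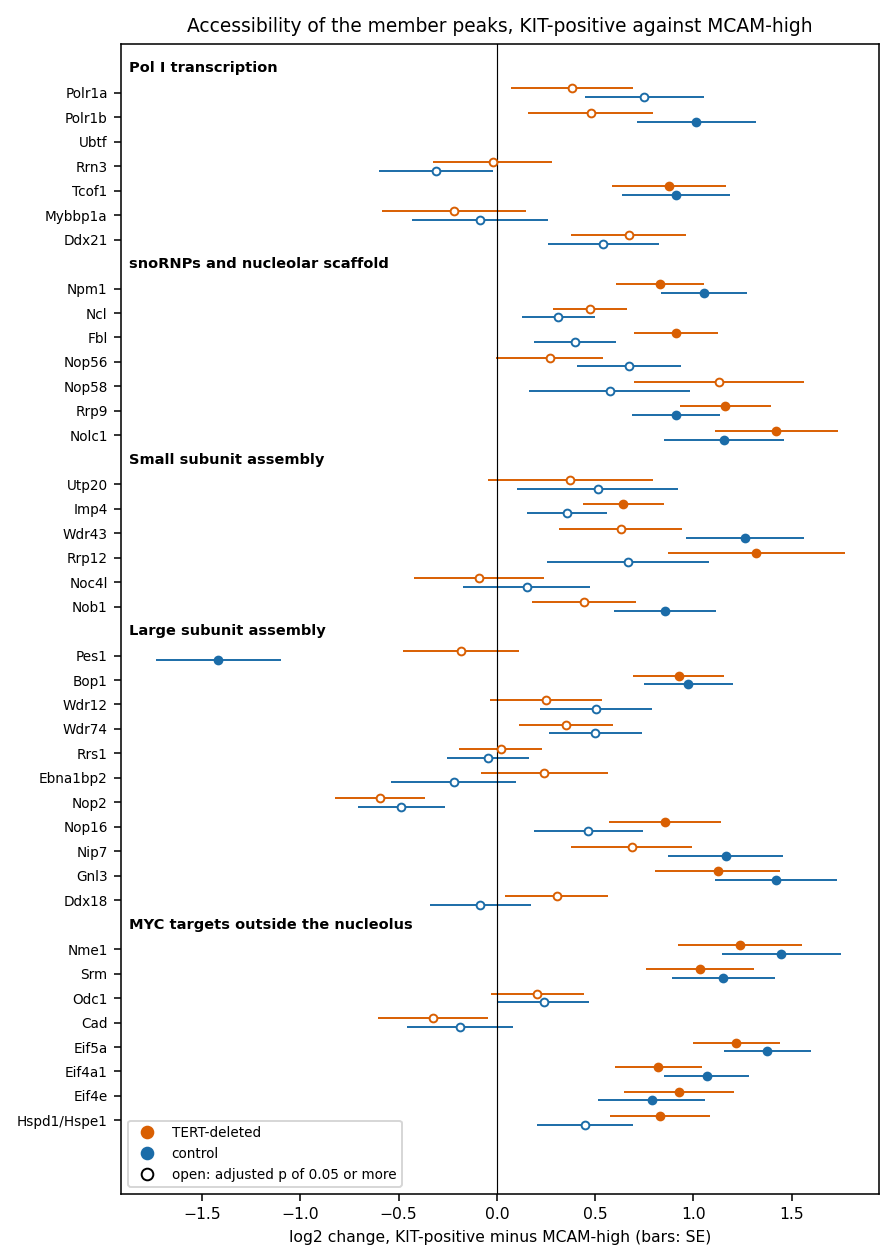
Difference in accessibility between KIT-positive and MCAM-high cells for each member peak, as log2 on the horizontal axis, for TERT-deleted (orange, upper) and control mice (blue, lower), with bars of 1 SE from the edgeR fit; filled points passed the adjusted threshold of 0.05. Most points lie right of 0 in both genotypes, with medians of 0.64 in deleted and 0.56 in control mice, and the Pes1 point of control mice lies at -1.42.

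The 8 peaks of MYC targets outside the nucleolus held the most calls, 6 higher in deleted and 5 higher in control mice. Of strong gene-end peaks, 22.8% in deleted and 23% in control mice were called higher. Eif5a had 143, 192 and 147 CPM in deleted KIT-positive libraries, against 70.2, 85.9 and 50.5 CPM in deleted MCAM-high ones. In controls it had 112, 181 and 144 CPM in KIT-positive libraries, against 57.0, 55.5 and 54.6 CPM in MCAM-high ones. All KIT-positive libraries lay above all MCAM-high ones, and the log2 difference was 1.22 (SE 0.22, adjusted p = 0.000149) in deleted and 1.38 (SE 0.22, adjusted p = 1.78e-05) in control mice. Srm, the gene of the enzyme that makes spermidine, had 101, 58.9 and 64.6 CPM in deleted KIT-positive libraries, against 35.1, 40.04 and 34.95 CPM in deleted MCAM-high ones. Control KIT-positive libraries had 67.1, 70.9 and 116 CPM at Srm, against 41.2, 44.8 and 28.3 CPM in control MCAM-high ones. The groups did not overlap, and 1 library in each KIT-positive group, the one of over 70% even counts, stood above the others. The log2 difference was 1.03 (SE 0.28, adjusted p = 0.00831) and 1.15 (SE 0.26, adjusted p = 0.00169).

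Nme1, which encodes a nucleoside diphosphate kinase, had 28.6, 41.1 and 49.96 CPM in deleted KIT-positive libraries, against 17.1, 18.1 and 15.5 CPM in deleted MCAM-high ones. In controls it had 35.02, 41.9 and 46.5 CPM in KIT-positive libraries, against 15.8, 17.9 and 11.02 CPM in MCAM-high ones, a log2 difference of 1.45 (SE 0.30, adjusted p = 0.000701) where the deleted mice gave 1.24 (SE 0.32, adjusted p = 0.00608). KIT-positive libraries lay above MCAM-high ones in both genotypes. Eif4a1, the helicase of the cap-binding complex, had 155, 171 and 158 CPM in deleted KIT-positive libraries, against 101, 85.2 and 87.8 CPM in deleted MCAM-high ones, and its log2 difference was 0.82 (SE 0.22, adjusted p = 0.00872). Control mice gave 141, 152 and 219.9 CPM in KIT-positive libraries, against 93.1, 91.8 and 58.8 CPM in MCAM-high ones at Eif4a1 (1.07, SE 0.22, adjusted p = 0.000500). Its peak is shared with Senp3, itself a gene of large subunit maturation. Eif4e, the cap-binding protein, was called in both genotypes (0.93 in deleted, 0.79 in control), but in control mice its call held in 0 of 6 fits that each leave out 1 library and in deleted mice in 2 of 6. The shared peak of Hspd1 and Hspe1 was called in deleted mice (0.83, adjusted p = 0.0229) and not in controls (0.45, adjusted p = 0.221), a call that held in 3 of 6 such fits.

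The 2 exceptions in this group were Odc1 and Cad. Odc1 encodes ornithine decarboxylase, the first enzyme of polyamine synthesis and a classical MYC target. It had 64.4, 83.5 and 96.8 CPM in deleted KIT-positive libraries, against 70.2, 63.3 and 79.2 CPM in deleted MCAM-high ones. In controls it had 86.4, 66.6 and 102 CPM in KIT-positive libraries, against 52.5, 82.4 and 83.5 CPM in MCAM-high ones. The groups overlapped in both genotypes and neither log2 difference passed (0.21 and 0.24). Cad, the enzyme of the first steps of pyrimidine synthesis, had log2 differences of -0.32 in deleted and -0.19 in control mice, which did not pass.

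**Figure D2:**
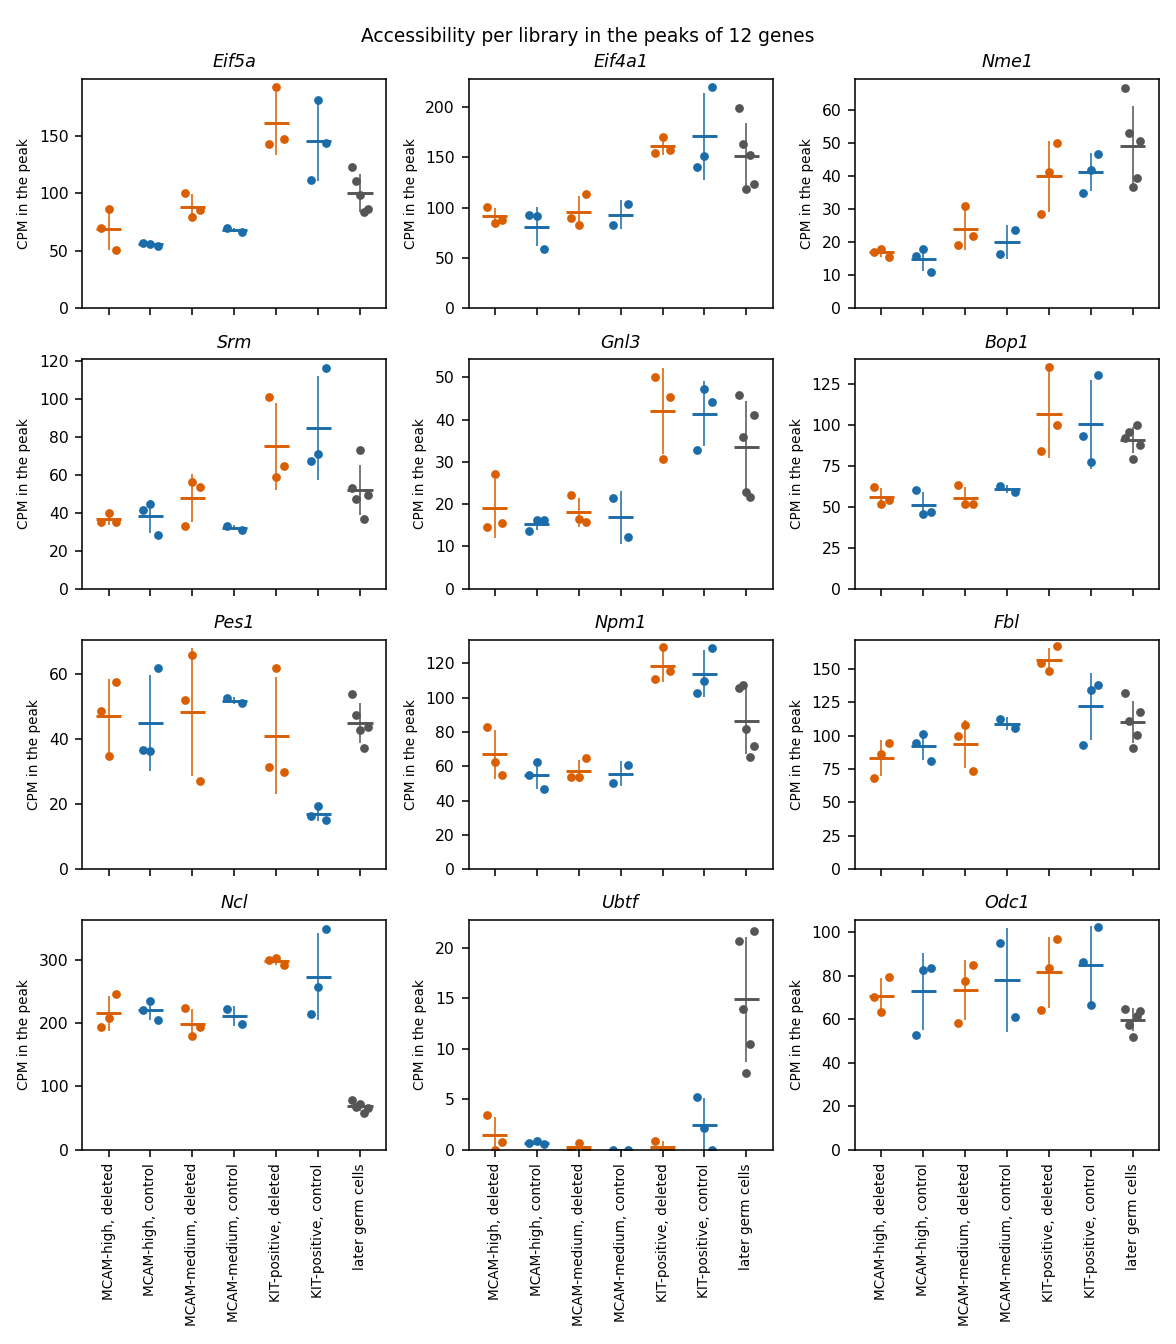
CPM per library in the peaks of 12 member genes, 1 panel a gene, with the groups in order of stage and deleted (orange) left of control (blue); points are libraries, horizontal lines group means and vertical lines 1 SD. Eif5a, Eif4a1, Nme1, Srm, Gnl3, Bop1 and Npm1 are higher in KIT-positive libraries than in MCAM-high ones, Pes1 is low in the 3 control KIT-positive libraries (15.1 to 19.3 CPM), and Ncl is lowest in later germ cells (58.4 to 78.7 CPM).

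Of the 7 peaks of snoRNPs and the nucleolar scaffold, 4 were called higher in deleted and 3 in control mice, and all 7 had a positive log2 difference in both. Among strong gene-end peaks 22.8% and 23% were called higher, and in controls 70.8% had a positive difference. Npm1, which encodes nucleophosmin, the abundant scaffold protein of the nucleolus, had 111, 129.6 and 115 CPM in deleted KIT-positive libraries, against 83.0, 62.6 and 55.1 CPM in deleted MCAM-high ones. The control values were 103, 109.6 and 129 CPM in KIT-positive libraries, against 54.9, 62.3 and 46.7 CPM in MCAM-high ones. The groups did not overlap, at log2 differences of 0.83 (SE 0.22, adjusted p = 0.00872) and 1.05 (SE 0.22, adjusted p = 0.000654). Rrp9, a protein of the snoRNP that directs early cleavage of the pre-rRNA, rose by 1.16 in deleted (SE 0.23, adjusted p = 0.000465) and by 0.91 in control mice (SE 0.23, adjusted p = 0.00381). Nolc1, a phosphoprotein that binds snoRNPs, had 62.6, 58.3 and 46.1 CPM in deleted KIT-positive libraries, against 15.4, 22.6 and 24.1 CPM in deleted MCAM-high ones (1.42, SE 0.31, adjusted p = 0.00143), and rose by 1.16 in controls (SE 0.30, adjusted p = 0.00647).

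Fbl, which encodes fibrillarin, the methyltransferase of the box C/D snoRNPs, had 154, 148 and 167 CPM in deleted KIT-positive libraries, against 68.5, 86.5 and 94.8 CPM in deleted MCAM-high ones (0.91, SE 0.21, adjusted p = 0.00276). Control Fbl values were 93.2, 134 and 138 CPM in KIT-positive libraries, against 94.8, 101 and 80.8 CPM in MCAM-high ones, with 1 KIT-positive library inside the MCAM-high range, and did not pass (0.40, adjusted p = 0.204). The test of the difference between the genotypes did not pass either (0.52, SE 0.30, adjusted p = 0.996). Another peak at the other end of Fbl did not pass in either genotype. It gave 0.36 in deleted mice (edgeR adjusted p = 0.435) and 0.30 in controls (adjusted p = 0.508). Ncl, the nucleolar RNA-binding protein nucleolin, had 299.7, 303 and 292 CPM in deleted KIT-positive libraries, against 193, 207 and 246 CPM in deleted MCAM-high ones, and 214, 257 and 348 CPM in control KIT-positive libraries, against 221, 234 and 205 CPM in control MCAM-high ones. It passed in neither genotype (0.47, adjusted p = 0.0818, and 0.31, adjusted p = 0.263). Nop56 and Nop58, the paired core proteins of the box C/D particles, did not pass (0.27 and 1.13 in deleted, 0.67 and 0.57 in control mice).

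Of the 6 tested peaks of Pol I transcription, 1 was called higher in deleted and 2 in control mice, beside 22.8% and 23% of strong gene-end peaks. Polr1b, the second largest subunit of Pol I, had 31.3, 27.0 and 26.9 CPM in deleted KIT-positive libraries, against 15.4, 25.8 and 19.4 CPM in deleted MCAM-high ones, and did not pass there (0.48). In controls it had 29.1, 36.5 and 43.0 CPM in KIT-positive libraries, against 17.2, 19.2 and 17.3 CPM in MCAM-high ones (1.02, SE 0.30, adjusted p = 0.0161), a call that held in 4 of 6 fits that each leave out 1 library. Tcof1, which encodes treacle, a nucleolar protein needed for rRNA transcription, was called in deleted (0.88) and control mice (0.91), in 1 of 6 and 2 of 6 such fits. Rrn3, the factor that brings Pol I to the promoter, and Mybbp1a had values at or below 0 in both genotypes (-0.02 and -0.22 in deleted, -0.31 and -0.08 in control mice) and did not pass.

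Of the 6 peaks of small subunit assembly, 2 were called higher in each genotype, and not the same ones. The shares of strong gene-end peaks called higher were 22.8% in deleted and 23% in control mice. In deleted mice they were Imp4 (0.64, SE 0.21, adjusted p = 0.0299) and Rrp12 (1.32, SE 0.45, adjusted p = 0.0404), calls that each held in 2 of 6 fits that leave out 1 library. At Rrp12 the groups overlapped, since deleted MCAM-high libraries had 0.86, 7.75 and 17.1 CPM and deleted KIT-positive ones 12.5, 30.7 and 21.5 CPM. In control mice they were Wdr43, a component of the complex that joins rRNA transcription to processing (1.26, SE 0.30, adjusted p = 0.00243), and Nob1, the nuclease of the last cleavage of the small subunit RNA (0.85, SE 0.26, adjusted p = 0.0195), of which Nob1 held in 3 of 6 such fits. Noc4l, whose peak is shared with Ddx51, did not pass (-0.09 in deleted, 0.15 in control mice). The interaction tests of these members did not pass, so a call in 1 genotype does not show a difference between genotypes.

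Of the 11 peaks of large subunit assembly, 3 were called higher in deleted mice, and 3 higher and 1 lower in controls. That is near the 22.8% and 23% of strong gene-end peaks called higher in deleted and control mice. Gnl3, which encodes nucleostemin, a nucleolar GTPase known from stem and dividing cells, had 50.1, 30.7 and 45.3 CPM in deleted KIT-positive libraries, against 14.6, 27.1 and 15.5 CPM in deleted MCAM-high ones (1.12, SE 0.32, adjusted p = 0.0132), a call that held in 3 of 6 fits that leave out 1 library and was lost with the gene-end scaling (adjusted p = 0.0839). Control mice had 32.8, 47.3 and 44.2 CPM in KIT-positive libraries, against 13.7, 16.2 and 16.3 CPM in MCAM-high ones (1.42, SE 0.31, adjusted p = 0.00111). The groups did not overlap in either genotype. Nip7 was called in controls (1.17, SE 0.29, adjusted p = 0.00439) and Nop16 in deleted mice (0.86, SE 0.29, adjusted p = 0.0364, held in 3 of 6 such fits). Rrs1 and Ddx18 had log2 differences of 0.02 and 0.30 in deleted and -0.05 and -0.08 in control mice, and did not pass.

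Pes1, Bop1 and Wdr12 encode the 3 partners of 1 complex needed to mature the large subunit, and their peaks differed. Bop1 had 84.1, 136 and 99.9 CPM in deleted KIT-positive libraries, against 62.5, 51.7 and 54.4 CPM in deleted MCAM-high ones (0.92, SE 0.23, adjusted p = 0.00504), and 93.2, 77.4 and 131 CPM in control KIT-positive libraries, against 60.4, 45.7 and 47.2 CPM in control MCAM-high ones (0.97, SE 0.23, adjusted p = 0.00209). Pes1 had 31.3, 62.0 and 30.0 CPM in deleted KIT-positive libraries, against 48.8, 34.9 and 57.5 CPM in deleted MCAM-high ones, which overlap (-0.18, SE 0.30, not passing). In controls Pes1 had 16.4, 19.3 and 15.1 CPM in KIT-positive libraries, against 36.7, 36.3 and 61.9 CPM in MCAM-high ones, so every KIT-positive library was below every MCAM-high one (-1.42, SE 0.32, adjusted p = 0.00150). Pes1 was the single member called lower in KIT-positive cells. The call held in each of the 13 alternative fits in which it was tested. Wdr12 did not pass (0.25 in deleted, 0.51 in control mice).

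**Figure D3:**
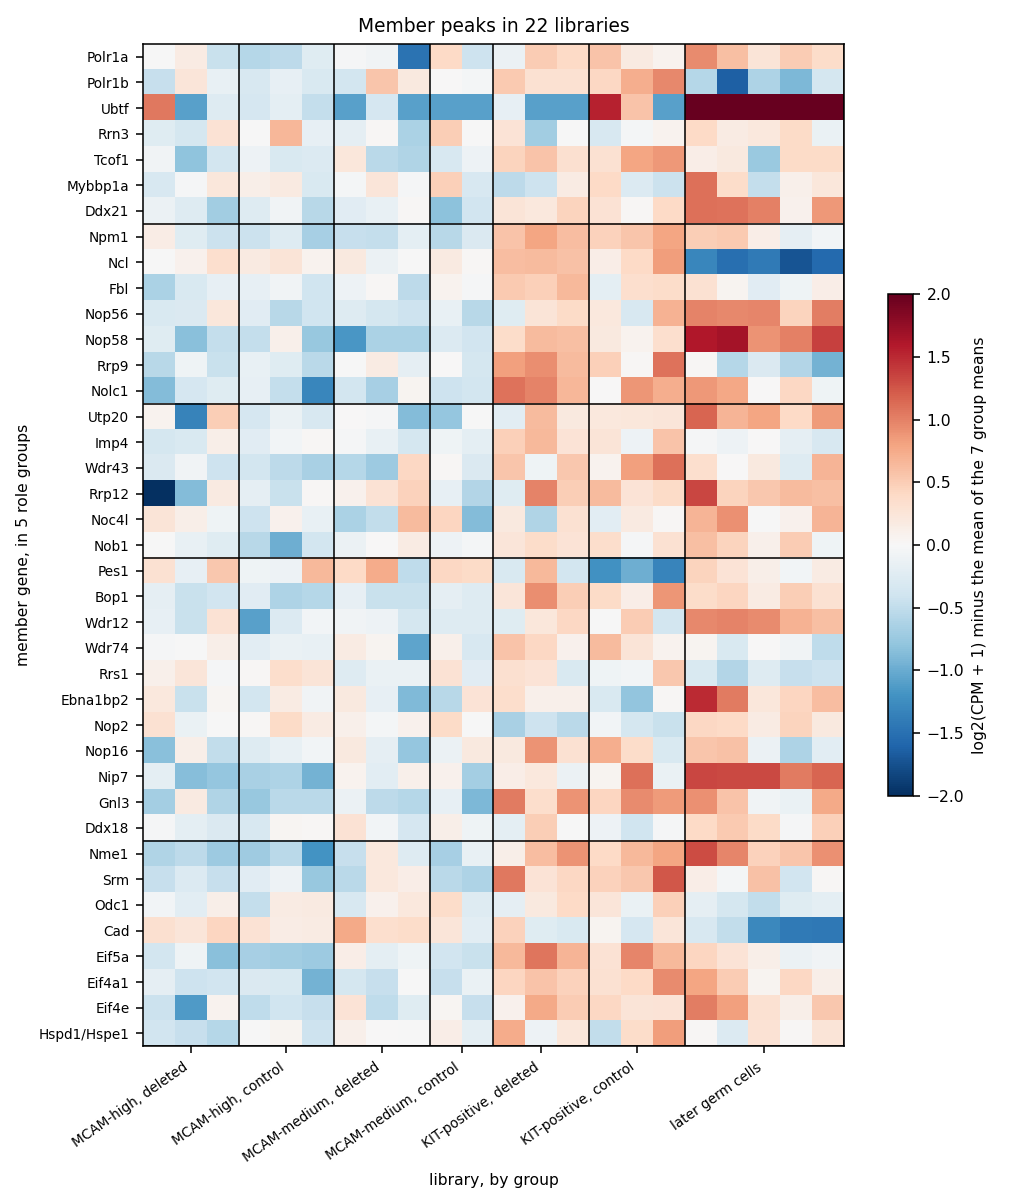
Accessibility of the 39 member peaks (rows, in 5 role groups) in the 22 libraries (columns, by group), coloured by log2(CPM + 1) minus the mean of the 7 group means. The KIT-positive columns are red in most rows, and later germ cells are blue at Ncl and Polr1b and red at Ubtf, Nop58 and Nip7.

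The deleted and control comparisons of KIT-positive with MCAM-high cells rest on different libraries and can be set against each other. Of the 38 peaks 11 were called higher in both, 5 in deleted mice alone and 4 in controls alone, 1 (Pes1) was called lower in controls alone, and 17 were called in neither. The 11 were Tcof1, Npm1, Rrp9, Nolc1, Bop1, Gnl3, Nme1, Srm, Eif5a, Eif4a1 and Eif4e. In 34 of the 38 the sign was the same, and Pearson's r across the 38 peaks was 0.777, a description since peaks of 1 set of libraries are not independent replicates. Strong gene-end peaks as a class also moved this way, with 22.8% called higher in deleted and 23% in control mice. In controls 70.8% of them were above 0. Their share called in both genotypes was not counted, so this agreement is not shown to be particular to the members.

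Summed over the 39 peaks, the members held 2744 ± 123 CPM in deleted KIT-positive (SD, n = 3) and 2622 ± 357 CPM in control KIT-positive libraries (SD, n = 3), against 1835 ± 52.2 CPM in deleted MCAM-high (SD, n = 3) and 1806 ± 106 CPM in control MCAM-high ones (SD, n = 3). The KIT-positive libraries also held a larger share of their counts in gene-end peaks as a class, and what part this has in the members' values was not tested beyond the scaling given above. In control KIT-positive replicates 1, 2 and 3 the gene-end share was 54.4, 59.1 and 64.1%, and the member sum was 2341, 2502 and 3023 CPM. In deleted KIT-positive replicates 1, 2 and 3 the share was 63.0, 57.7 and 59.7% and the sum 2715, 2878 and 2638 CPM. Control MCAM-high libraries had 52.7 to 54.7% and 1729 to 1927 CPM. In bulk libraries a larger fraction of cells with an open site and a more open site per cell cannot be told apart.

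**Figure D4:**
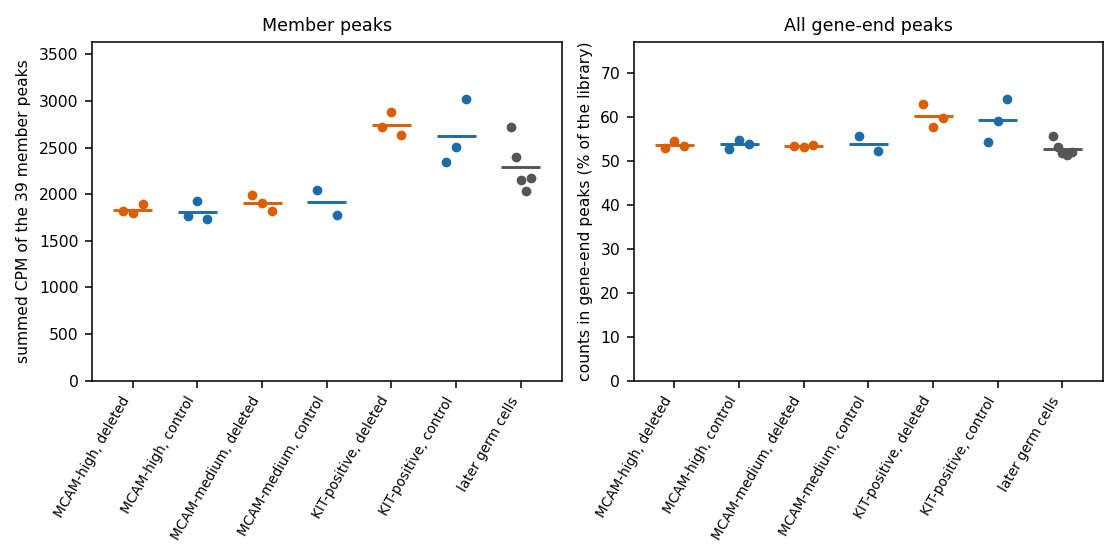
Summed CPM of the 39 member peaks per library (left) and percent of each library's counts that fell in any gene-end peak (right), by group, with points for libraries and lines for means; both axes start at 0. The 6 KIT-positive libraries lie above all MCAM-high and MCAM-medium libraries on the left (2341 to 3023 against 1729 to 2047 CPM), and on the right the KIT-positive range of 54.4 to 64.1% meets the others at its lower end.

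Against MCAM-medium cells, which share the MCAM gate with the KIT-positive ones, fewer members passed. In deleted mice 9 of 38 were higher in KIT-positive cells and 0 lower, on a background of 4.59% of all peaks and 13.6% of strong gene-end peaks called higher (2.27% of all peaks lower). They were Npm1 (1.03), Nolc1 (1.24), Bop1 (0.91), Eif5a (0.84), Gnl3 (1.19), Rrp9 (0.79), Fbl (0.72), Eif4a1 (0.74) and Nop58 (1.44). The peak at the other end of Fbl did not pass there (0.54, edgeR adjusted p = 0.287). In controls 7 were higher and 1 lower, on 5.7% of all peaks and 13.6% of strong gene-end peaks called higher (3.62% of all peaks lower). They were Srm (1.40), Eif5a (1.08), Npm1 (1.02), Gnl3 (1.28), Eif4a1 (0.86), Nme1 (1.03) and Rrp9 (0.77), and Pes1 (-1.64, SE 0.34, adjusted p = 0.00144) was the one lower. With the scaling set on gene-end peaks, 1 was higher and 2 lower in deleted and 3 higher and 2 lower in control mice, on 4.22% and 4.64% of strong gene-end peaks called higher. These counts depend on single libraries: without control MCAM-medium replicate 1, 0 were higher and 1 lower in controls, without control MCAM-medium replicate 2 there were 4 and 1, and without control KIT-positive replicate 3 there were 3 and 1. In deleted mice 3 to 5 members were called whichever of the 6 libraries was left out. Fitted on the 2 groups alone, controls gave 1 higher and 1 lower. These comparisons share their KIT-positive libraries with those against MCAM-high cells.

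No member passed between MCAM-medium and MCAM-high cells. With edgeR, 0 of 38 members passed in deleted mice (background 0.014% of all peaks) and 0 in controls (0% of all peaks), and at an unadjusted p under 0.05 there were 2 members among 5472 peaks in deleted mice and 0 among 932 peaks in controls. DESeq2 also called 0 members in each. The smallest p values among positive differences belonged in deleted mice to Rrp12 (1.11, SE 0.45) and the Hspd1 and Hspe1 peak (0.53, SE 0.26), and in controls to Nob1 (0.56, SE 0.28) and Polr1a (0.51, SE 0.33). Among negative differences they belonged in deleted mice to Rrs1 (-0.26, SE 0.21) and Polr1a (-0.29, SE 0.32), and in controls to Ddx21 (-0.32, SE 0.32) and Srm (-0.25, SE 0.30). The median over the 38 was 0.08 in deleted and 0.10 in control mice.

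The deletion comparison asks whether the loss of TERT for 7 days altered these peaks, and no member passed in any of the 3 populations. With edgeR 0 of 38 were called in deleted against control MCAM-high (background 0.0489% of all peaks), MCAM-medium (0.00873%) or KIT-positive cells (0.00349%), or in the mean over the 3 (0.124%), and DESeq2 called 0 in each. At an unadjusted p under 0.05 there were 0, 0, 1 and 1 members among 3355, 2437, 2056 and 3167 peaks. The median log2 difference over the 38 was 0.03 in MCAM-high, 0.00 in MCAM-medium, and 0.01 among KIT-positive cells, and single members ran from -0.60 to 0.46, from -0.54 to 0.68 and from -0.40 to 1.28. The standard errors of single members ran from 0.19 to 0.49 in the 3 populations, and the Pes1 difference of 1.28 in KIT-positive cells did not pass, so changes well above these errors can go uncalled at this depth.

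The member behind the unadjusted calls was Pes1. Its peak had 31.3, 62.0 and 30.0 CPM in deleted KIT-positive libraries, against 16.4, 19.3 and 15.1 CPM in control KIT-positive ones, without overlap. The log2 difference was 1.28 (SE 0.33, unadjusted p = 0.000297 in the edgeR fit, adjusted p = 1), and the difference between its deletion effects in KIT-positive and MCAM-high cells was 1.24 (SE 0.44, adjusted p = 0.913). With edgeR and DESeq2 alike 0 members passed that interaction test, where 1 member and 2855 peaks had an unadjusted p under 0.05 with edgeR and 0% of all peaks were called. The next members by p in KIT-positive cells were Fbl (0.34, SE 0.21), and among negative ones Wdr43 (-0.40, SE 0.30) and Nip7 (-0.36, SE 0.29). In MCAM-high cells they were Nob1 (0.46, SE 0.27) and Eif5a (0.28, SE 0.22), and among negative ones the Hspd1 and Hspe1 peak (-0.40, SE 0.25) and Rrp12 (-0.60, SE 0.45). In MCAM-medium cells they were Srm (0.55, SE 0.31) and Cad (0.48, SE 0.30), and among negative ones Rrn3 (-0.52, SE 0.32) and Polr1a (-0.44, SE 0.34). In the mean of the 3 populations Pes1 (0.40, SE 0.18) and Eif5a (0.26, SE 0.13) came first among positive differences and Rrn3 (-0.29, SE 0.18) and Nop2 (-0.20, SE 0.13) among negative ones.

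Later germ cells were compared with control KIT-positive cells to follow the peaks past the spermatogonial stage, and here the members split. In a fit of the 13 heterozygous libraries, 8 of 38 member peaks were higher and 11 lower in later germ cells, with a median log2 difference of -0.17. Ubtf is left out of these counts, because its peak was too low in spermatogonia and entered this fit only through the later germ cells, where it is high. The background was 29.2% of all 73134 peaks called higher and 22.8% lower, and 24% and 28.4% of the strongest gene-end peaks of 17292 genes, so the number called is not above the background. The split depends on the scale: with the TMM scaling on gene-end peaks 11 were higher and 6 lower, on 30.3% and 22.6% of gene-end peaks, while the median of all peaks was 0.32, against 0.12 with the scaling on all peaks, and DESeq2 also gave 11 and 6. Without control KIT-positive replicate 3, the library of over 70% even counts, 4 were higher and 6 lower. No called member changed its sign in these fits.

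Ncl fell most. It had 78.7, 68.2, 72.4, 58.4 and 66.0 CPM in later germ cells, against 214, 257 and 348 CPM in control KIT-positive libraries. All later libraries lay far below all spermatogonial ones, whose lowest value was 179 CPM. The log2 difference was -2.03 (SE 0.18, adjusted p = 2.90e-14), and against control MCAM-high cells it was -1.71 (SE 0.18, adjusted p = 2.64e-12). Polr1b had 14.1, 6.31, 13.7, 11.2 and 16.6 CPM in later germ cells, against 29.1, 36.5 and 43.0 CPM in control KIT-positive libraries (-1.57, SE 0.30, adjusted p = 1.92e-05), below every control KIT-positive library. Rrp9 fell by 1.09 on the log2 scale (SE 0.22, adjusted p = 3.67e-05), although its later libraries of 40.5 to 80.7 CPM reached the lowest KIT-positive one, 80.6 CPM. Cad fell by 0.98 (SE 0.29, adjusted p = 0.00415).

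The polyamine genes and Eif5a were lower in later germ cells. Srm had 53.1, 47.3, 73.2, 36.8 and 49.4 CPM there, against 67.1, 70.9 and 116 CPM in control KIT-positive libraries (-0.76, SE 0.23, adjusted p = 0.00445). Odc1 had 64.5, 57.4, 51.8, 61.7 and 63.8 CPM in later germ cells, against 86.4, 66.6 and 102 CPM in control KIT-positive libraries (-0.55, SE 0.21, adjusted p = 0.0260). Eif5a had 123, 110.4, 98.3, 84.0 and 86.5 CPM in later germ cells, against 112, 181 and 144 CPM in control KIT-positive libraries (-0.56, SE 0.19, adjusted p = 0.0131). Srm and Eif5a overlap between the groups at 1 library each and Odc1 does not overlap, and Srm and Odc1 lost their calls without control KIT-positive replicate 3. With the gene-end scaling Odc1 (adjusted p = 0.101) and Eif5a (adjusted p = 0.0523) did not pass. The other falls were Rrs1 (-0.62), Tcof1 (-0.59), Wdr74 (-0.53) and Imp4 (-0.44), of which Rrs1, Tcof1 and Imp4 lost their calls without that library, and Tcof1, Wdr74 and Imp4 with the gene-end scaling. The chosen Wdr74 peak lies at an end of Stx5a, and the peak over the Wdr74 start did not pass (0.17, SE 0.29, adjusted p = 0.642). Among the 8 peaks of MYC targets outside the nucleolus 4 were lower and 0 higher, and with the gene-end scaling 2 of the 4, Srm and Cad, were still called. The share of the strongest gene-end peaks called lower was 28.4%, and 22.6% with the gene-end scaling.

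Among the 11 large subunit factors 5 were higher and 2 lower in later germ cells, beside 24% and 28.4% of the strongest gene-end peaks. Pes1 had 53.8, 47.3, 42.7, 37.4 and 43.8 CPM there, against 16.4, 19.3 and 15.1 CPM in control KIT-positive libraries, without overlap (1.39, SE 0.28, adjusted p = 3.33e-05). Against control MCAM-high cells the groups overlapped at Pes1. Ebna1bp2 (1.13, SE 0.29, adjusted p = 0.000943), Nip7 (0.81, SE 0.24, adjusted p = 0.00425), Wdr12 (0.76, SE 0.25, adjusted p = 0.00755) and Nop2 (0.57, SE 0.21, adjusted p = 0.0208) were the other rises, and all but Ebna1bp2 lost their calls without control KIT-positive replicate 3. The chosen Nop2 peak lies at an end of Iffo1, and the peak over the Nop2 start did not pass (0.16, SE 0.24, adjusted p = 0.587). Bop1 had 92.1, 95.9, 79.2, 100.4 and 87.6 CPM in later germ cells, inside the 77.4 to 131 CPM of control KIT-positive libraries, and did not pass. Of the box C/D core, Nop58 had 39.3, 41.0, 23.6, 25.6 and 33.3 CPM in later germ cells, against 14.2, 12.9 and 15.7 CPM in control KIT-positive libraries (1.15, SE 0.33, adjusted p = 0.00279), and Nop56 rose by 0.59 (SE 0.23, adjusted p = 0.0301, held in 4 of 8 fits that leave out 1 library), whereas Fbl, at 131, 111, 90.7, 100.4 and 118 CPM in later germ cells, did not pass. Ddx21, an RNA helicase of the nucleolus, was also called higher (0.59, SE 0.26, adjusted p = 0.0461), in 1 of 8 such fits. Npm1, at 106, 107, 81.5, 65.6 and 71.6 CPM in later germ cells against 103, 109.6 and 129 CPM in control KIT-positive libraries, did not pass either (-0.44, adjusted p = 0.0655).

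Ubtf, which encodes the factor that opens the rRNA genes for Pol I, had its chosen peak at 20.7, 13.9, 7.62, 10.5 and 21.6 CPM in later germ cells, against 5.22, 2.15 and 0 CPM in control KIT-positive libraries, 7, 2 and 0 counts. These values are a description with no test, for the reason given above. In both control MCAM-medium libraries the peak had 0 counts, which allows up to 1.39 and 1.86 CPM by the limit of 3 counts, for counting error only. The peak lies 116 bp from the annotated end and 2231 bp from the nearest RefSeq start. The peak over a RefSeq start of Ubtf (chr11:102319415-102319643) went the other way. It had 1.91 ± 1.51 CPM in later germ cells (SD, n = 5) and 11.02 ± 1.48 CPM in control KIT-positive cells (SD, n = 3). This start peak also passed the filter in the fit of spermatogonial libraries alone, which are the ones where it is high. In later germ cells it is near the limit of 3 counts, 0.893 to 2.09 CPM in those libraries. It was also added after seeing the data. The log2 difference was -2.35 (SE 0.56) against control KIT-positive cells and -1.38 (SE 0.57) against control MCAM-high cells. These values too are a description with no test.

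**Figure D5:**
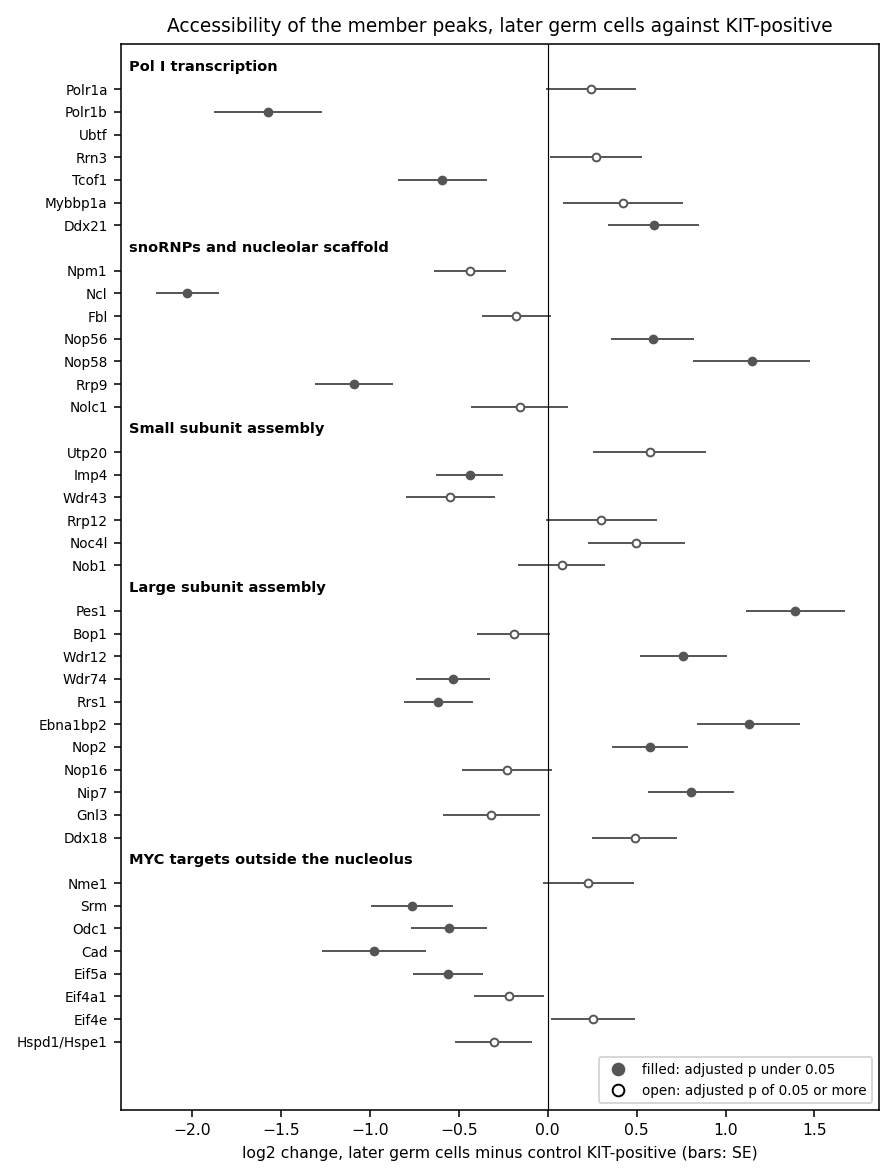
Log2 difference in accessibility between later germ cells and control KIT-positive cells for each of 38 member peaks, Ubtf left out, with bars of 1 SE; filled points passed the adjusted threshold of 0.05. Ncl (-2.03) and Polr1b (-1.57) lie farthest left and Pes1 (1.39) farthest right, and the filled points among MYC targets outside the nucleolus are all left of 0.

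Against control MCAM-high cells, 20 of 38 members, Ubtf again left out, were higher and 3 lower in later germ cells (Ncl, Cad at -1.15 and Rrs1 at -0.66), with a median of 0.64, on a background of 33.5% of all peaks and 34.4% of the strongest gene-end peaks called higher (24.9% and 27.2% lower). The 11 rises of smallest adjusted p were Nip7 (1.97), Nme1 (1.68), Nop56 (1.27), Nop58 (1.73), Wdr12 (1.27), Ddx21 (1.15), Eif4e (1.05), Eif4a1 (0.86), Eif5a (0.82), Polr1a (1.003) and Gnl3 (1.11). Both comparisons use the same 5 later libraries, and their control groups also form the KIT-positive against MCAM-high comparison, so the 3 are not independent. Side by side, Nme1 had 66.6, 53.0, 36.6, 39.4 and 50.5 CPM in later germ cells, in the range of 35.02 to 46.5 CPM of control KIT-positive libraries or above, and all above the 11.02 to 17.9 CPM of control MCAM-high libraries. Gnl3, at 45.9, 36.0, 22.9, 21.7 and 41.0 CPM, and Eif4a1, at 199, 163, 118, 152 and 124 CPM in later germ cells, likewise lay above the control MCAM-high libraries in all 5.

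Other genes of the pathway, 123 in all, were followed as a wider list, chosen with earlier results of these data known. Of these 121 had a gene-end peak, on 120 peaks tested, of which those of Ddx51 and Senp3 are also member peaks. In KIT-positive against MCAM-high cells 25 were higher and 0 lower in deleted mice and 23 higher and 1 lower in controls. The medians were 0.47 and 0.38, with 20.8% and 19.2% called higher. These shares lie between those of the strongest gene-end peaks of all genes (14.5% and 15.1%) and those above the median count (22.8% and 23%). Among the 15 further MYC targets, 6 were higher in deleted and 7 in control mice. The smallest adjusted p in controls belonged to Ran, the GTPase of nuclear transport, at 116 ± 17.2 CPM in control KIT-positive (SD, n = 3) and 37.8 ± 1.88 CPM in control MCAM-high cells (SD, n = 3; 1.61, SE 0.23, adjusted p = 1.97e-06), followed by the small subunit factor Utp18 (1.28), the helicases Ddx54 (1.10) and Dhx37 (1.35) and Senp3 at the Eif4a1 peak. The single one lower was Rrp36 (-0.92, SE 0.25, adjusted p = 0.00806). In later germ cells against control KIT-positive cells 38 were higher and 22 lower of 120 (31.7% and 18.3%). Of the strongest gene-end peaks of all genes, 24% were higher and 28.4% lower. The falls of smallest adjusted p were Nol6 (-2.31), Mphosph10 (-1.82), Pa2g4 (-1.68), Las1l (-2.21) and Heatr1 (-1.49), and the rises Mrto4 (1.68), Rrp36 (1.28), Gar1 (1.33), Fcf1 (1.63) and Ddx55 (1.51). Of the further MYC targets 9 of 15 were lower and 2 higher there, beside those same shares.

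The calls can also be read beside the E-box. In KIT-positive against MCAM-high cells 6 of the 12 genes with CACGTG and 5 of the 20 others with a tested peak were called higher in deleted mice, and 5 of 12 and 6 of 20 in controls. The peak shared by Hspd1, which has the E-box, and Hspe1, which has none, is counted on both sides. Over the tested peaks of all genes with a window the shares were 17.9% of 1492 peaks with CACGTG and 14.9% of 11615 without in deleted mice, and 17.8% and 15.6% in controls. Among the 6 genes with a printed window, Eif5a, Eif4a1, Nme1 and Wdr43 have the E-box and were called higher in controls. Pes1, whose window prints the E-box 2 bases from its start, was the one called lower there. Gnl3, whose window prints none, was among the largest rises. A link between the E-box and these differences was not tested.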

How the data were processed

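ATAC-seq was done on 22 sorted germ cell libraries in 7 groups. The authors deposited 1 table of raw counts per peak for all libraries. The submitters' processing notes name FastQC, Bowtie2, SAMtools and Picard and the builds mm10, GRCm38 and hg19; the coordinates were used as mm10. The peak caller, the counting rule and any Tn5 offset are not given in the sources used here.

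From the deposited counts, edgeR 4.0.16 in R 4.3.3 was run with TMM scaling, its filter on low counts and the quasi-likelihood test, with Benjamini-Hochberg adjustment over all peaks tested (threshold 0.05). One fit held the 17 spermatogonial libraries and 6 groups, the other the 13 heterozygous libraries. SEs are the log2 difference divided by the root of F. CPM per library uses TMM over all 22. The fits were tested on simulated data. Gene ends come from RefSeq (GRCm38.p6), which was also the source of the promoter sequences. Groups came from the titles. Totals of 922085 to 3358377 counts limit the precision of weak peaks, and limits from 0 counts cover counting error only.

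The genes, the pathway and marker lists and the tests were chosen with earlier results of these data known. Called members were named where at most 12 were called in a direction, otherwise the 12 of smallest adjusted p; with none called, the 2 of smallest p in each direction were named, and for the pathway list the 5 of smallest adjusted p. Alternatives were a 500 bp window, the sum of gene-end peaks, total counts, TMM on gene-end peaks, no filter, only the groups compared, DESeq2 1.42.0, a replicate block and each library left out. The peak over the RefSeq start, and leaving out libraries of over 70% even counts, were added after seeing the data.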

Additional observations from a re-analysis of the deposited data

Results flagged for a closer look

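In later germ cells the lowest Nop56 value, 55.8 CPM in replicate 4, lay far from the nearest other library, 80.1 CPM, for the spread of the 5. The highest Rrp12 value there, 39.3 CPM in replicate 1, lay likewise far above the nearest, 23.6 CPM. The gap was 0.871 and 0.848 of the range of the 5 values, above Dixon's limit of 0.71. Of 41 groups of 5 values examined 2 stood out so, and chance alone gives about 1 in 20, or 2.05.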

How the results depend on the processing

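No value of a called member changed its sign under the alternatives that kept the chosen peak. Counted over each call and each alternative, 994 values stayed called and 251 lost the call. Members that were not called are not in these counts, and their signs were not followed. The 500 bp window, the sum of gene-end peaks and the peak over the RefSeq start are not in these counts. Over its RefSeq start, Wdr74 gave 0.17 in later germ cells against control KIT-positive cells, where its chosen peak was called lower. Ubtf gave -2.35 over a RefSeq start in that comparison, where its chosen peak was higher. Called members in deleted KIT-positive against MCAM-high cells were 16, and 5 with TMM on gene-end peaks; against MCAM-medium they were 9, 3 with that scaling and 5 without libraries of over 70% even counts. In controls against MCAM-medium they were 8, then 5 with that scaling, 2 with only the groups compared, 4 with the replicate block and 4 without those libraries. In later germ cells against control KIT-positive cells they were 20, and 11 without those libraries. Ubtf is counted in both, and in the ranges for later germ cells given next. With Ubtf left out, 4 were higher and 6 lower without those libraries. Fits that leave out 1 library then gave 4 to 9 higher and 6 to 13 lower against control KIT-positive cells. Against control MCAM-high cells such fits gave 17 to 20 higher and 3 lower. Leaving out 1 library gave 9 to 13 calls in deleted and 11 to 15 in control KIT-positive against MCAM-high cells, 3 to 5 in deleted and 1 to 11 in control ones against MCAM-medium, 11 to 20 in later germ cells against control KIT-positive and 21 to 24 against control MCAM-high cells. All comparisons of deleted with control and of MCAM-medium with MCAM-high cells stayed at 0.

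Over all peaks the scaling turns the split. In deleted KIT-positive against MCAM-high cells 5382 peaks were higher and 2492 lower, 3817 and 3881 with total counts, and 2685 and 5096 with TMM on gene-end peaks. In controls they were 5522 and 3502, 4071 and 4991, and 2834 and 6443.

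Libraries with the same replicate number did not deviate together: correlations ran from -0.42 to 0.05 in 16 pairs of 1 genotype and from -0.09 to 0.09 in 8 pairs across genotypes, so the numbers were not taken as pairs. With the replicate block 14 and 15 members were called in deleted and control KIT-positive against MCAM-high cells and 6 in deleted ones against MCAM-medium. The cause of these losses was not tested. A left-out library that leaves control MCAM-medium with 1 assumes that it varies like the other groups.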
